A study of Neurospora crassa OR74A with 26 samples.

Results

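The filamentous fungus Neurospora crassa colonises dead plant material, where secreted enzymes release sugars from cellulose and xylan. Its transcription factors CLR-1 and CLR-2, both of the zinc binuclear cluster family, are needed for the expression of cellulase genes, and xylan genes have a regulator of their own, XLR-1. In wild type, cellulose switches on a large set of secreted enzymes, while mycelium without any carbon source starves and switches on a small part of that set at low levels. The comparison here asks whether strains that lack clr-1 or clr-2 look like starving wild type when cellulose is their carbon source, and which genes set them apart.

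The data are 5 of the 26 poly(A) RNA libraries of the series. Of these, 2 come from deletion strains 4 h after transfer to Avicel, a microcrystalline cellulose. One is the strain titled cdr1 (FGSC 11029), in which a hygromycin resistance cassette replaces the reading frame of NCU07705, clr-1. The other is the strain titled cdr2 (FGSC 15835), with the same replacement of NCU08042, clr-2. The other 3 are wild type (FGSC 2489) 4 h after transfer to medium without carbon, which the design text counts as biological triplicates. All cultures were first grown for 16 h in sucrose medium and washed before transfer. Each deletion group is 1 library of 1 strain, so the spread used in the tests comes from wild-type triplicates. The exception is an alternative fit of the 5 libraries alone, which takes the 2 strains as 1 group when both are compared with no carbon. Wild type on Avicel at 4 h (3 libraries) serves as the second reference. No label gives the mating type of the deletion strains. Values are FPKM, fragments per kilobase of transcript scaled to the mapped fragments of the library, summed per gene.

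The deletion libraries hold 37.7 and 36.04 M reads (M for 1000000) of 50 bases, and the no-carbon libraries hold 41.2, 108 and 111 M reads of 51 bases. The deletion libraries list 1038 and 1074 genes at 0, and the no-carbon libraries 1002, 764 and 718. Depth and read length move with the groups, and their part in the differences of weakly expressed genes was not tested. The 1st percentile of the read counts behind listed values was 11 to 14 per library, so a gene listed at 0 may still have had a few reads.

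The deleted genes were low or at 0 in the strains labelled for them. The clr-1 level was 11.0 FPKM in the clr-1 deletion and 507 in the clr-2 deletion, against 172, 178 and 221 without carbon. The clr-2 level was 15.1 in the clr-1 deletion and listed at 0 in the clr-2 deletion, against 9.18, 19.7 and 6.63 without carbon. In wild type on Avicel it stood at 1521, 1122 and 1289.6 FPKM, so the clr-1 deletion on cellulose held clr-2 at the level of starved wild type. Of the other regulators of the list, xlr-1 and vib-1 lay near the starved level too. For xlr-1 the deletions held 325 and 469 FPKM and the no-carbon libraries 331, 324 and 347, while wild type on Avicel held 984, 1183 and 1303. For vib-1, another regulator of cellulase genes, the deletions held 319 and 315 FPKM and starved wild type 183, 373 and 233. None of the 6 regulators passed the test of both deletion libraries together against no carbon. Their median difference was −0.60, in a range from −1.55 to 0.33, so not every regulator lay as near as xlr-1 and vib-1. Without the 36- and 40-base libraries of the triplicate groups clr-1 passed (−1.28, adjusted p = 0.006). For clr-1 and clr-2 the mean over both strains joins the strain that lacks the gene with one that holds it. Against no carbon, clr-1 differed by −3.98 in the clr-1 deletion and clr-2 by −3.55 in the clr-2 deletion.

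Over the 8629 genes tested, the deletions on Avicel were close to starved wild type and closer still to each other. Distance is given here as the median absolute difference in log2(FPKM + 1) between 2 libraries over all tested genes, as a description with no test. The 2 deletion libraries differed by 0.144, the 3 no-carbon libraries among themselves by 0.230 to 0.308, and the deletions from the no-carbon libraries by 0.246 to 0.316. The deletions thus lay about as far from starved wild type as starved replicates lay from each other. Replicates were not always so far apart: the wild-type Avicel libraries with 50-base reads differed from each other by 0.101. The likeness to replicate spread therefore holds for the starved libraries only. Wild type on Avicel with 50-base reads lay 0.300 to 0.358 from the no-carbon libraries. The ranges overlap, so closeness by this median was not particular to the deletions. The share of genes at least 4-fold apart from a no-carbon library did separate them. It was 1.31% to 2.94% for the deletions and 3.52% to 5.08% for those Avicel libraries. Pearson r with the no-carbon libraries was 0.939 to 0.960 for the deletions and 0.890 to 0.916 for those Avicel libraries.

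By the same measure, the deletions were no farther from wild type on Avicel, as long as libraries of like read length were compared. Their distance to the wild-type Avicel libraries with 50-base reads was 0.191 to 0.303. To the one with 40-base reads, which also holds only 11.8 M reads, it was 0.545 to 0.566. The clr-2 deletion lay 0.191 and 0.237 from the 50-base Avicel libraries and 0.246 to 0.281 from no carbon. For the clr-1 deletion these distances were 0.259 and 0.303, and 0.251 to 0.316. The median hides the few genes that differ most. Between 1.31% and 2.94% of genes differed at least 4-fold between a deletion and a no-carbon library, and 0.753% to 2.38% between 2 no-carbon libraries. Against the 50-base Avicel libraries of wild type the share was 1.70% to 3.72%. Wild type on sucrose at 4 h lay much farther away, at 1.15 to 1.22 with 50-base reads, with 30.8% to 33.9% of genes at least 4-fold apart.

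**Figure D1:**
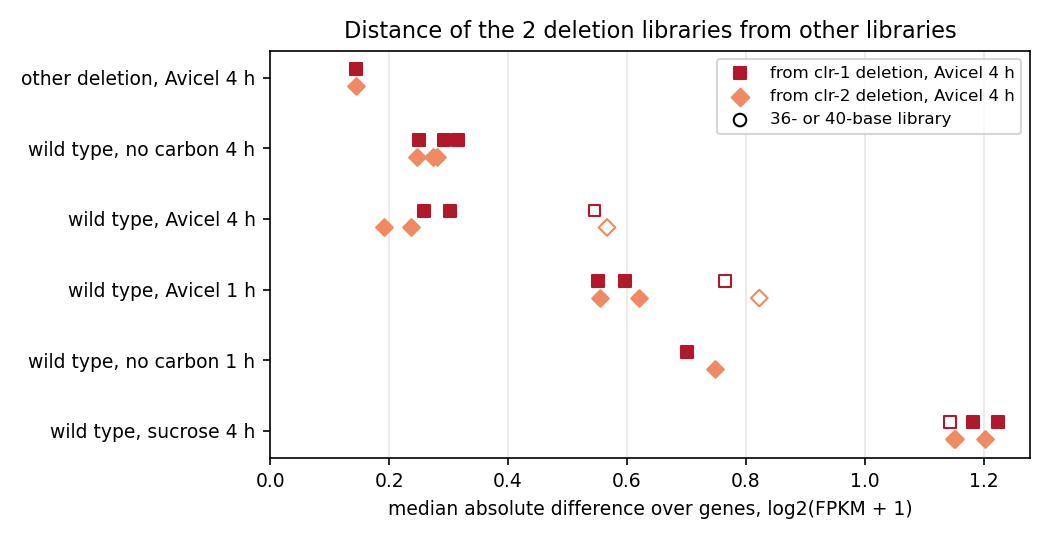
Median absolute difference in log2(FPKM + 1) over the tested genes (x axis) between each deletion library on Avicel at 4 h and the libraries of the groups on the y axis; each marker is 1 pair of libraries, squares from the clr-1 deletion and diamonds from the clr-2 deletion, open markers with 36- or 40-base reads. The pair of deletion libraries lies at 0.144, the no-carbon libraries at 0.246 to 0.316 and sucrose beyond 1.

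A gene was called different at an adjusted p under 0.05 in limma, adjusted over all tested genes. With both deletion libraries together, 72 of 8629 genes (0.834%) differed from starved wild type. Of these, 55 (0.637%) were higher in the deletions and 17 (0.197%) lower, and in none did the 2 deletion libraries overlap the 3 no-carbon libraries. The 2 groups do not overlap in 2932 of the 8629 tested genes either way, so separation by itself does not mark the called genes. At an unadjusted p under 0.05 there were 486 genes. The clr-1 deletion by itself gave 35 genes (0.406%) and the clr-2 deletion 42 (0.487%). The same 2 deletion libraries against wild type on Avicel gave 177 genes (2.05%), 28 higher and 149 lower. A further fit, named below as without the 36- and 40-base libraries, left out the 4 such libraries of triplicate groups. The single 36-base libraries of wild type on Avicel, at 30 min and 2 h, stayed in. In that fit the count against no carbon was 314, with 168 higher and 146 lower. Without the clr-1 or the clr-2 deletion library it was 43 or 35.

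**Figure D2:**
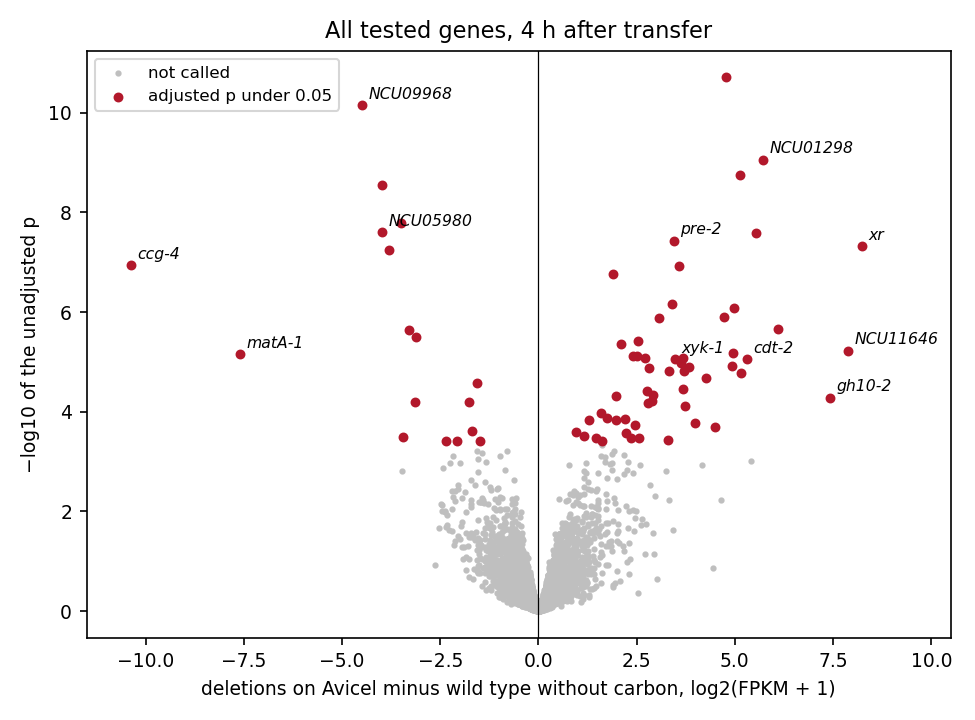
Difference between the deletions on Avicel and wild type without carbon in log2(FPKM + 1) (x axis) and −log10 of its unadjusted p (y axis), 1 point per tested gene, red where the adjusted p is under 0.05. The 55 red points on the right include xr, gh10-2 and NCU11646, and the 17 on the left include ccg-4 and matA-1; the position of a gene listed at 0 depends on the pseudocount.

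The higher genes with a symbol included genes of xylan breakdown and pentose use. Xylose released from xylan is taken up, reduced by D-xylose reductase (xr) and, after an oxidation step, phosphorylated by xylulokinase (xyk-1). Of the 3 tested genes of pentose metabolism 2 were higher and none lower, with a median difference of 3.47 on the log2 scale, where the median of all tested genes was −0.05. The reductase gene xr (NCU08384) reached 27824 FPKM in the clr-1 deletion and 27882 in the clr-2 deletion, against 70.6, 99.6 and 106 without carbon. Its log2 difference of 8.25 ± 0.75 (SE, adjusted p = 4.1e-05) was the largest rise, and it was called in each strain by itself. Wild type on Avicel held 8539.9, 36991 and 37166 FPKM, so the deletions lay inside the wild-type range on cellulose, whose lowest value is the 40-base library.

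The kinase gene xyk-1 (NCU11353) stood at 1999 and 1798 FPKM in the deletions and at 215, 144 and 158 without carbon, a difference of 3.47 ± 0.50 (adjusted p = 0.0024). On Avicel, wild type held 428, 1668 and 1594. NCU00891, which has no symbol in the reference table, stood at 7511 and 8284 against 319, 230.4 and 355 (4.73 ± 0.57, adjusted p = 0.00063). In both genes, as in each of the 55 higher genes, the deletions were above every starved library. The third list member, tkl-1 for transketolase, did not pass, with 53.0 and 65.1 FPKM against 88.9, 64.3 and 98.4.

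Among endoxylanases, which cut the xylan backbone, 1 of 5 tested genes was higher and the median difference was 1.20. The family 10 gene gh10-2 (NCU08189) held 39186 and 48631 FPKM in the deletions, against 208, 157 and 501 without carbon. The difference was 7.42 ± 1.27 (adjusted p = 0.0097), and no starved library came near the deletions. The call needs both deletion libraries, with an adjusted p of 0.069 without the clr-1 deletion and 0.0989 without the clr-2 deletion. The family 11 gene gh11-2 held 7716 and 5807 FPKM against 108, 165 and 215, without overlap, and missed the threshold at 5.41 ± 1.28 (adjusted p = 0.098). It passed without the 36- and 40-base libraries (adjusted p = 0.0079). Not every xylanase gene was high: gh10-1 stood at 14.1 and 3.74 FPKM against 4.83, 5.93 and 6.63, where wild type on Avicel held 30744, 12382 and 16236.

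Family 3 and family 2 glycosidases outside the β-glucosidase list gave 2 higher genes of 9 tested. The family 3 gene gh3-8 (NCU00709) held 297 and 307 FPKM in the deletions and 6.31, 7.23 and 15.2 without carbon, a difference of 4.93 ± 0.73 (adjusted p = 0.003). With a pseudocount of 0.1 FPKM it was 5.08 and did not pass (adjusted p = 0.26). The family 3 gene gh3-7 held 90.6 and 88.5 FPKM against 11.99, 7.65 and 14.996 (2.90 ± 0.50, adjusted p = 0.011). It lies outside the rule for named genes and was chosen after its values were seen. The remaining 7 members had differences between −0.34 and 0.65 and did not pass.

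Sugar transporters gave 1 higher gene of 4. The gene for the cellodextrin transporter cdt-2 (NCU08114) held 13218 FPKM in the clr-1 deletion and 29032 in the clr-2 deletion, against 506, 464 and 515 without carbon (5.30 ± 0.76, adjusted p = 0.0024). Both deletions were below wild type on Avicel at 34039.6, 64599 and 70796. Without the clr-2 deletion library the adjusted p was 0.057. The cellodextrin transporter cdt-1 held 852 and 1517 FPKM against 259.7, 733 and 319.9 and did not pass (1.53 ± 0.55, adjusted p = 0.55). For hgt-1, a high-affinity glucose transporter, 6921 and 6125 FPKM stood against 2623, 2929.8 and 2132 (1.36 ± 0.46, adjusted p = 0.47), without overlap. It passed without the 36- and 40-base libraries (adjusted p = 0.0062).

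Of the 55 higher genes, 9 have a symbol and the others have none in the reference table, and those are given by ID alone. Their median level was 635 and 650.2 FPKM in the deletions, 66.1, 58.0 and 91.8 in the no-carbon libraries, and 330.3, 809 and 869 in wild type on Avicel. Of the 55, 45 differed at least 4-fold from starved wild type. NCU01900 held 6254 and 7744 FPKM against 206, 91.5 and 176 (5.54 ± 0.48, adjusted p = 2.8e-05), with 3574, 12226 and 13407 in wild type on Avicel. NCU05068 held 1088 and 1561 FPKM against 38.7, 47.4 and 54.2 (4.78 ± 0.24, adjusted p = 1.7e-07). The abundant NCU02343 held 14514 and 15017 against 454, 888 and 1099.9 (4.27 ± 0.67, adjusted p = 0.0045). In all 3 genes, as in each of the 55 higher genes, both deletions stood above every starved library. NCU07510, NCU00292, NCU06143 and NCU06138, also among the largest rises, differed by 4.49 to 6.11; NCU06138 passed least securely (adjusted p = 0.03) and lost its call with any 1 of the 5 libraries left out (0.0505 to 0.231). Without the clr-2 deletion library NCU02343 and NCU00292 lost their calls too, at differences of 4.25 and 4.94. NCU07510 lost its call with a pseudocount of 0.1 FPKM (adjusted p = 0.0708). Of the 55, 39 belong to the 212 genes that the study clustered as responding to Avicel, a choice made on these samples and so no independent evidence of their direction. Of the 8629 genes tested, 211 belong to these clusters. Among those 211, 171 did not pass against no carbon and 1 was lower.

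Some genes stood between the starved and the full cellulose level. NCU04870 held 212 and 255 FPKM in the deletions, against 5.75, 3.76 and 8.10 without carbon and 9399, 5098 and 6862 in wild type on Avicel. Its difference was 5.14 ± 0.36 (adjusted p = 3.8e-06) from starved wild type and −4.89 ± 0.36 (adjusted p = 1.5e-06) from wild type on Avicel. NCU05159 held 1828 and 1325 FPKM against 91.0, 174 and 138 without carbon and 34712, 27982 and 35960.4 on Avicel. NCU07224 was weaker, at 21.8 and 18.7 FPKM against 0, 1.07 and 1.22 without carbon and 129.7, 102.4 and 138 on Avicel. In these 3 genes the 3 groups are separate; NCU05159 and NCU07224 were named after their values were seen. The 2 comparisons share the deletion libraries, so their values stand side by side and are no independent results.

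The cellulase genes cbh-1 and gh6-2 stayed near the starved level. None of the 12 tested cellulases and β-glucosidases was called higher or lower than no carbon. As 0.834% of all genes were called, 0 of 12 says little by itself. The median difference was 0.36, in a range from −1.45 to 2.93. Without the 36- and 40-base libraries 2 of the 12 were called higher, gh1-1 (adjusted p = 0.0022) and gh6-3 (adjusted p = 0.016). The gene cbh-1 for cellobiohydrolase 1, the main secreted cellulase, held 168 and 149 FPKM in the deletions and 116, 103 and 123 without carbon (0.47 ± 0.55, 95% interval −0.72 to 1.67). With cellulose, wild type held 186620.0, 86756 and 104215 FPKM. For gh6-2, the second cellobiohydrolase, 127 and 122 FPKM stood against 96.6, 98.3 and 120.2 (0.25 ± 0.48, 95% interval −0.79 to 1.29). The endoglucanase gene gh5-1 held 32.7 and 26.2 FPKM against 11.0, 12.8 and 16.3, with 68101, 32852 and 43671 on Avicel. Both gh6-2 and gh5-1 were named after their values were seen, as were gh10-1 and cdh-1.

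Against wild type on Avicel, 8 of these 12 genes were lower and the median was −5.20. The 13 polysaccharide monooxygenase and cellobiose dehydrogenase genes, whose oxidative enzymes open crystalline cellulose, likewise had 0 called against starved wild type. That count says as little for 13 genes. Their median difference was 0.13, in a range from −1.26 to 0.90. The monooxygenase gene gh61-3 held 37.7 and 54.8 FPKM against 31.9, 33.2 and 29.8, and cdh-1 for cellobiose dehydrogenase 18.1 and 22.6 against 23.0, 17.6 and 23.1. Wild type on Avicel held 18952, 9131 and 10957 FPKM of gh61-3. Of the 13 genes, 8 were lower than in wild type on Avicel.

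**Figure D3:**
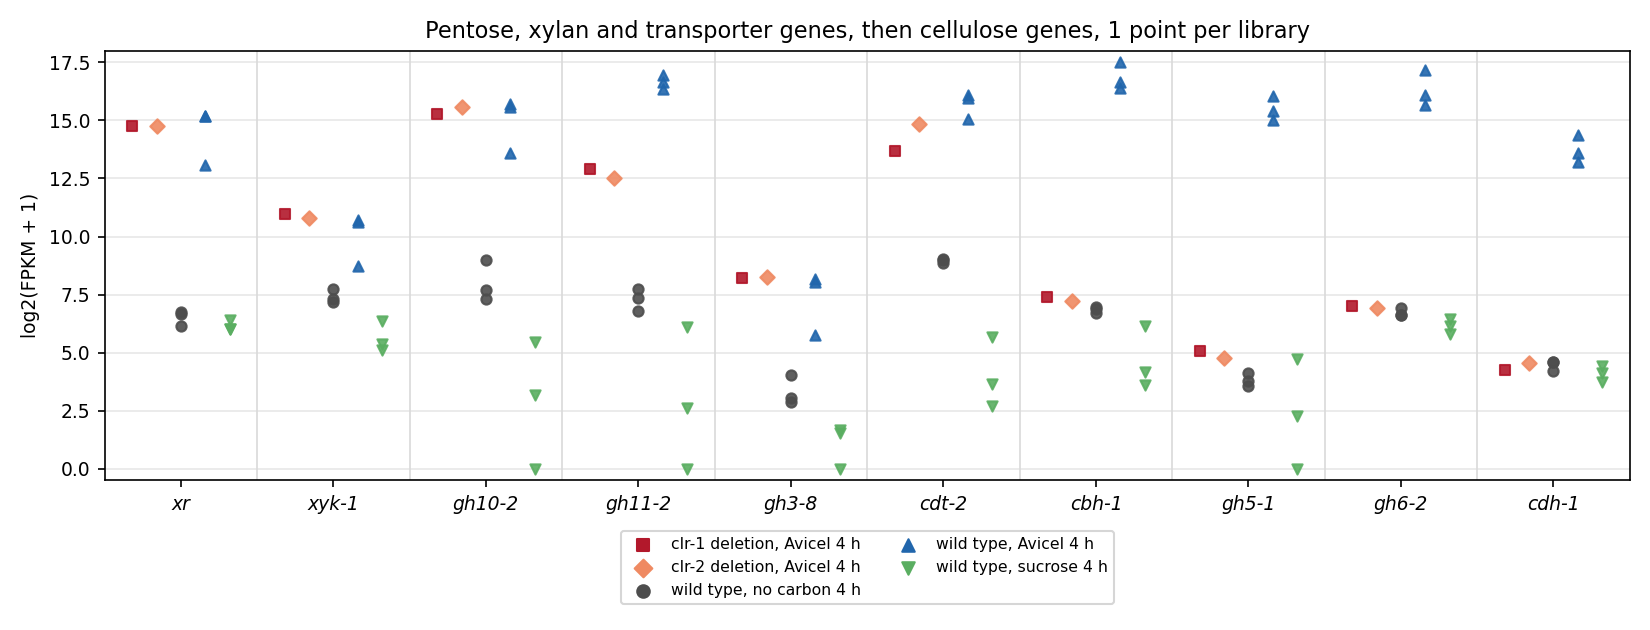
Level in log2(FPKM + 1) (y axis) of 10 genes (x axis), 1 point per library, in the clr-1 deletion and the clr-2 deletion on Avicel and in wild type without carbon, on Avicel and on sucrose, all at 4 h. For xr, gh10-2 and gh3-8 the deletions sit with wild type on Avicel; for cbh-1, gh6-2 and cdh-1 they sit with wild type without carbon.

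Some β-glucosidase genes, whose enzymes split cellobiose, and a cellulase gene had unlike levels in the 2 strains, without passing the test. The gene gh1-1 held 751 FPKM in the clr-1 deletion and 2743 in the clr-2 deletion, against 158, 204 and 205 without carbon. The gene gh3-3 held 461 and 3354 FPKM against 463, 262 and 452. The cellulase gene gh6-3 held 101 and 379.7 against 96.3, 95.0 and 107. In all 3 genes the clr-1 deletion was the lower of the strains, and for gh3-3 and gh6-3 it lay within or next to the starved range. These genes are given for their unlike levels. In cbh-1, gh6-2 and gh5-1 of the same list the clr-1 deletion was slightly the higher strain.

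The test of the strain difference gave an adjusted p of 1 for each of them, with log2 differences of −1.87 ± 1.83 for gh1-1, −2.86 ± 1.59 for gh3-3 and −1.90 ± 0.77 for gh6-3. At 1 h on Avicel the clr-1 deletion was again the lower strain, with 543 against 5632 FPKM of gh1-1 and 67.6 against 335 of gh6-3. There gh3-3 stood at 633 FPKM in the clr-1 deletion and 8086 in the clr-2 deletion, with 460.1, 7944 and 7963 in wild type, the first of them a 36-base library. For cdt-2 at 1 h the values were 535 and 3529.8, with 768, 3713 and 4097 in wild type.

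The test of the clr-1 against the clr-2 deletion at 4 h called 5 genes (0.0579%). They are the deleted genes clr-1 and clr-2 and the genes NCU09968, NCU09969 and NCU11930. NCU09968 was at 83.2 FPKM in the clr-1 deletion and listed at 0 in the clr-2 deletion, against 204, 211 and 198 without carbon. NCU09969 held 19.1 and 0 FPKM against 43.4, 49.5 and 56.5, and NCU11930 held 52.4 and 0 against 101, 125 and 120.2. All 3 are listed at 0 in all 4 clr-2 deletion libraries, whatever the medium and time.

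The levels in the clr-1 deletion lay between those of the clr-2 deletion and starved wild type. NCU09968 ranged from 59.0 to 112 FPKM over the 4 clr-1 deletion libraries and from 126 to 328 over the 18 wild-type libraries, without overlap, and so did NCU09969, at 12.1 to 23.9 against 28.5 to 85.0. The ranges of NCU11930 overlap, at 36.006 to 72.7 against 58.3 to 226. The test of the clr-1 deletion alone against no carbon passed for none of the 3 (adjusted p 0.16 for NCU09968, 0.36 for NCU09969 and 0.63 for NCU11930). In the comparison of both deletions with no carbon all 3 counted among the 17 lower genes, and none of them passed without the clr-2 deletion library (adjusted p 0.142 to 0.614). NCU09968 and NCU09969 are neighbours 446 bases apart, and NCU11930 lies on another contig.

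Mating genes set both deletion strains apart from wild type. The mat A idiomorph carries matA-1, a regulator of mating identity. Strains of that mating type express the pheromone precursor gene ccg-4 and respond through the pheromone receptor gene pre-1, while pre-2 encodes the receptor that recognises the ccg-4 pheromone. Of the 4 genes of this list that were tested, 1 was higher and 2 were lower. The gene ccg-4 was listed at 0 in both deletion libraries and at 1034, 1562 and 1409 FPKM without carbon (adjusted p = 8e-05). It was listed at 0 in all 8 deletion libraries of the series and in none of the 18 wild-type libraries.

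The gene matA-1 was likewise listed at 0 in both deletions, against 173, 167 and 241 FPKM (adjusted p = 0.0023). It was at 0 in all 8 deletion libraries and in 1 of 18 wild-type libraries. No fold is given for either, since the fitted differences (−10.36 and −7.58) depend on the pseudocount. The 2 other genes of the idiomorph, matA-2 and matA-3, reached at most 1.67 FPKM in any library.

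The receptor gene pre-1 held 20.7 and 23.0 FPKM in the deletions against 94.0, 107 and 157 without carbon, a difference of −2.36 ± 0.90 that did not pass (adjusted p = 0.64). It passed without the 36- and 40-base libraries (adjusted p = 0.0008). The receptor gene pre-2 went the other way, with 194 and 198 FPKM against 18.3, 14.4 and 19.0 (3.44 ± 0.31, adjusted p = 3.5e-05). Wild type on Avicel held 12.2, 16.8 and 20.6, so pre-2 was high in the deletions against both wild-type references. At 1 h on Avicel it stood at 8.91 and 10.2 FPKM in the deletions and 8.25, 7.84 and 7.23 in wild type.

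Like pre-2, some other genes of the 55 were high against both wild-type references, which share the deletion libraries. NCU11646 held 18004 and 17854 FPKM in the deletions, against 81.6, 55.3 and 93.4 without carbon (7.88 ± 1.09, adjusted p = 0.0021) and 46.6, 59.8 and 57.8 in wild type on Avicel. With a pseudocount of 0.1 FPKM the difference was 7.90 and did not pass (adjusted p = 0.178). At 1 h on Avicel the deletions held 328 and 606 and on sucrose at 4 h 162 and 213, while the highest of the 18 wild-type libraries held 218 FPKM. NCU01298 held 3280.3 and 3210.5 FPKM against 43.9, 81.6 and 61.4 (5.72 ± 0.38, adjusted p = 2.5e-06) and at 1 h 27.4 and 25.4. Wild type on Avicel at 1 h held 167, 45.4 and 48.1 FPKM of NCU11646 and 8.15, 13.5 and 17.7 of NCU01298, so both genes were above wild type at 1 h too, by far less than at 4 h.

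NCU09565 held 684 and 634 FPKM against 44.4, 80.7 and 65.2 (adjusted p = 0.0004). NCU02021 held 57.4 and 47.5 against 4.24, 1.80 and 2.51 (adjusted p = 0.0031), and NCU09443 75.4 and 63.7 against 13.2, 16.1 and 16.7 (adjusted p = 0.0016). The smallest of these differences was that of NCU05999, with 629 and 544 FPKM against 278, 319 and 304 (0.96 ± 0.20, adjusted p = 0.036). These 4 genes fall outside the rule for named genes and were chosen after their values were seen.

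NCU05980 was low in the deletions instead. It held 25.7 and 24.6 FPKM in the deletions, against 379, 549 and 337 without carbon (−3.98 ± 0.34, adjusted p = 2.8e-05) and 306, 454 and 395 in wild type on Avicel. On sucrose at 4 h wild type held 12.85, 18.9 and 15.6 FPKM, so the deletions on Avicel lay just above that level. NCU02061 held 0 and 1.49 FPKM against 17.1, 29.7 and 18.8 (adjusted p = 4.4e-05). Whether mating type, the strain background or the deleted genes go with these differences cannot be told apart, because both deletion strains lack matA-1 and ccg-4 transcripts and each strain is 1 isolate.

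**Figure D4:**
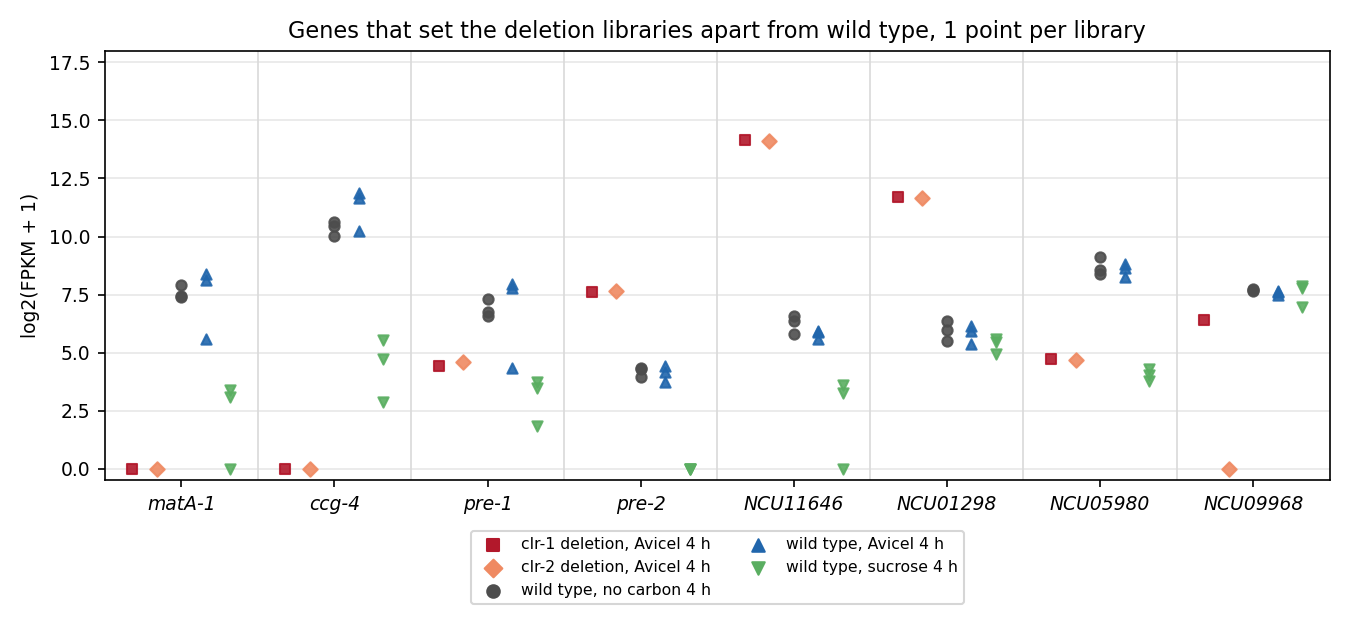
Level in log2(FPKM + 1) (y axis) of 8 genes (x axis), 1 point per library, in the same groups at 4 h as for the xylan and cellulose genes. Both deletions lie at 0 for matA-1 and ccg-4 and below the no-carbon libraries for pre-1 and NCU05980; they lie above every wild-type library shown for pre-2, NCU11646 and NCU01298, and the clr-2 deletion alone lies at 0 for NCU09968.

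The rest of the 17 lower genes had unlike levels. Listed at 0 in both deletions were 7 of the 17, among them ccg-4 and matA-1. The other 5 reached at most 12.4 FPKM in any no-carbon library, although NCU01076 held 1390.4, 364 and 528 in wild type on Avicel, and the no-carbon libraries 2 and 3 are the deeper ones. NCU07718 held 377 and 309 FPKM in the deletions, 1230.0, 719.6 and 990.4 without carbon and 142, 93.5 and 98.7 in wild type on Avicel (−1.49 ± 0.32 from no carbon, adjusted p = 0.047). NCU06153 held 194 and 211 against 628, 744 and 699 (−1.76 ± 0.31, adjusted p = 0.011), with 303, 247 and 279 on Avicel. The deletions did not reach the starved level of these genes, though both calls end without either deletion library (adjusted p 0.0897 to 0.482) or without no-carbon replicate 3 (0.0602 and 0.201), and that of NCU07718 also without replicate 1 (0.198).

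Genes of basic metabolism gave no call with all libraries in the fit, where 0.834% of all genes were called. Glycolysis (7 genes, median 0.00), the glyoxylate cycle and gluconeogenesis (6, 0.44), starch breakdown (11, −0.06), amino acid synthesis (43, −0.17), nitrogen assimilation (10, 0.04), respiratory complex I (29, −0.15) and the proteasome (16, 0.08) had 0 members higher and 0 lower. Without the 36- and 40-base libraries, starch breakdown and nitrogen assimilation each had 1 higher and 1 lower member, the glyoxylate list 1 higher and amino acid synthesis 1 lower. The lists of glycolysis, complex I and proteasome genes had 0 called in that fit too. Actin (act) held 7096 and 7041 FPKM against 7256, 7200 and 7333. The gluconeogenic gene acu-6, for phosphoenolpyruvate carboxykinase, spread widely within starved wild type, at 1161, 12642 and 599.8 FPKM, with 6493 and 980.6 in the deletions. A difference in that gene was not detectable at this spread. The 9 cytosolic ribosomal protein genes were all lower in the deletions by 0.52 to 0.91 on the log2 scale, none past the test. In crp-5 the deletions held 2414 and 2520.4 FPKM and the starved libraries 6542.5, 2771 and 3691, with replicate 1 the highest.

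Conidiation, light and pigment genes gave no call with all libraries in the fit, where 0.834% of all genes were called. Median differences were −0.87 for the 8 conidiation markers, −0.82 for the 10 light and clock genes and −1.19 for the 4 carotenoid genes, with members of either sign in each list. The hydrophobin gene eas held 13085 and 20484 FPKM against 206272, 78251 and 65514 (−2.64 ± 1.58, adjusted p = 1), and it passed without the 36- and 40-base libraries (adjusted p = 0.0206). The cryptochrome gene cry held 128 and 131 against 229, 691 and 1289 (−2.18 ± 0.50, adjusted p = 0.082), and it passed without no-carbon replicate 1 (adjusted p = 0.0007). For al-1, which encodes phytoene dehydrogenase, 568 and 423 FPKM stood against 463, 2455 and 4181, and it too passed without that replicate (adjusted p = 0.0443). In cry, al-1, al-2, frq and vvd no-carbon replicate 1 was the lowest of the starved libraries and nearest to the deletions. Other genes went another way: in eas replicate 1 was the highest, and al-3 passed without replicate 2 (−1.43, adjusted p = 0.0118). These are bulk libraries, so fewer cells of a type and less RNA per cell cannot be told apart.

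The endoplasmic reticulum chaperone gene grp78, whose product folds secreted proteins, held 3272 and 3418 FPKM in the deletions. Starved wild type held 1673, 2173 and 1713, and wild type on Avicel 15979, 11826 and 13257. The difference from starved wild type was 0.86 ± 0.47 and did not pass (adjusted p = 1), although the groups do not overlap and it passed without the 36- and 40-base libraries (adjusted p = 0.0178). The difference from wild type on Avicel was −2.02 (adjusted p = 0.041). Pectin, quinic acid, sulfur, glycogen and trehalose, heat shock, fermentation, autophagy, oxidative stress, strain marker and housekeeping lists had 0 called members against starved wild type; without the 36- and 40-base libraries 1 heat shock gene was lower. Their medians ran from −0.24 to 1.76, the highest being that of 2 fermentation genes.

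**Figure D5:**
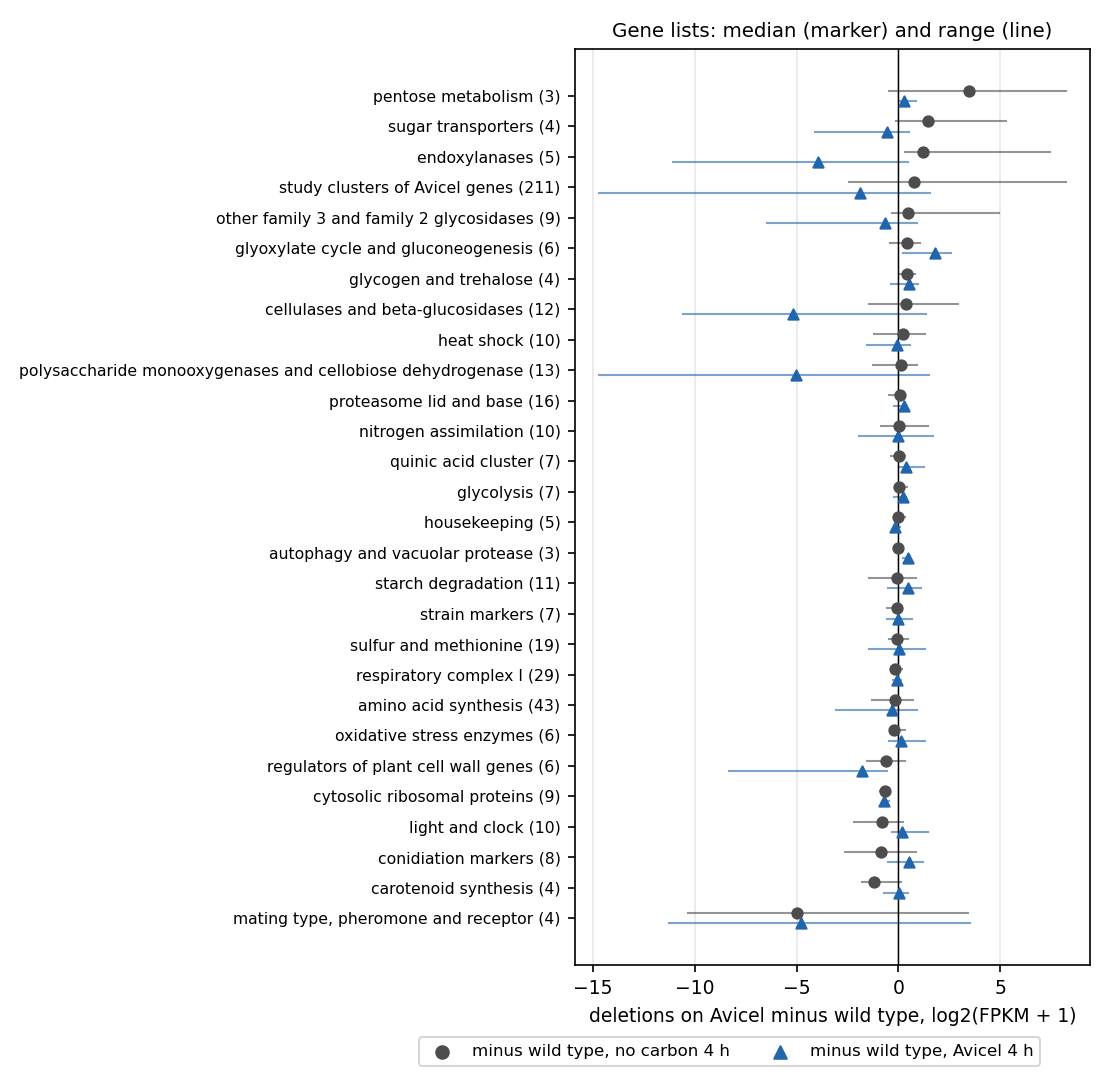
Difference in log2(FPKM + 1) (x axis) between the deletions on Avicel and wild type without carbon (grey circles) or wild type on Avicel (blue triangles) for each list with at least 3 tested genes (y axis, number tested in brackets); markers are medians and lines run from the lowest to the highest member. Cellulases have medians of 0.36 and −5.20, and pentose metabolism 3.47 and 0.29; the study clusters were chosen by the study on these samples.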

How the data were processed

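The deposited per-library files list FPKM per transcript, with a coverage signal and transcript lengths, per the file headers. The submitters' processing notes name TopHat, Cufflinks 0.9.3, HTSeq, DESeq and edgeR without their roles, so the tool behind the FPKM values is not stated by the authors there. The genome build is not given in the sources used here. From the study's deposited cluster table, whose columns are a score, only gene IDs were used.

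FPKM was summed from 9907 transcripts to 9733 genes. RefSeq's NC12 table matched 8914 of them and gave 1093 a symbol. FPKM was not rescaled. The product of coverage and effective length, divided by read length, gave whole reads for 91.8% to 93.6% of weakly covered transcripts of the 5 libraries (tolerance 0.02) and so the depths. No 2 libraries were identical.

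limma 3.58.1 in R 4.3.3 fitted log2(FPKM + 1) of all 26 libraries in 16 groups (5 with 3 libraries, 11 with 1), with a trend, where a gene averaged 1 FPKM or more. The residual degrees of freedom were 10, so each deletion library is assumed to vary like wild type. Tests are two-sided, with Benjamini-Hochberg adjustment within each of 5 comparisons. The code was tested on simulated data. Differences are on the log2(FPKM + 1) scale, which understates those of low genes. The protocol in the labels describes no strand marking, so reads of overlapping genes cannot be told apart.

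Genes named are the regulators, the up to 15 largest rises and falls among called genes that reach 10 FPKM in each library of the higher group, without overlap between the groups, up to 4 members per list with the highest level and genes called between the strains; the text gives a selection. The 31 lists and the comparison were chosen with earlier results of these data known. Alternatives changed the scaling, pseudocount, filter, libraries fitted and test (voom on recovered reads).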

Additional observations from a re-analysis of the deposited data

Results flagged for a closer look

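At 4 h on Avicel, the levels of 5 genes differed between clr-1 and clr-2 deletion by the test of that difference (limma, 1 library against 1, spread from wild type), and 2 of the 5 are the deleted genes themselves. The deleted gene clr-1 differed by −5.40 ± 0.62 (adjusted p = 0.0017) and clr-2 by 4.01 ± 0.61 (adjusted p = 0.027) between the clr-1 and the clr-2 deletion, on the log2(FPKM + 1) scale. NCU09968 differed by 6.40 ± 0.38 (adjusted p = 1.7e-06), NCU11930 by 5.74 ± 0.45 (adjusted p = 3e-05) and NCU09969 by 4.33 ± 0.45 (adjusted p = 0.00068). These 3 are listed at 0 in all 4 clr-2 deletion libraries, on sucrose too, so the sizes depend on the pseudocount.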

How the results depend on the processing

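Against no carbon, the count of 72 genes moved to 314 without the 36- and 40-base libraries, with all 72 kept, and ranged from 35 to 85 with 1 library left out. Other settings gave 51 to 102, the highest with voom, and 101 (54 higher, 47 lower) with no filter on low values. For the clr-1 deletion alone, 35 genes became 146 without the short libraries, 9 in a fit of the 5 libraries alone and 22 to 32 with 1 no-carbon library left out. For the clr-2 deletion alone, 42 became 143, 13 and 28 to 37. Against wild type on Avicel, 177 became 497 without the short libraries and 87 (without the clr-1 deletion) to 172 with 1 library left out, the latter chosen after seeing the data. Between the strains, 5 became 11 without the short libraries. The cause of these moves was not tested.

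Of 136 named genes none reversed where either setting called it. A pseudocount of 0.1 FPKM ended 8 calls, among them gh10-2 (adjusted p = 0.229), gh3-8 (0.26) and NCU11646 (0.178). The 3 genes at 0 in the clr-2 deletion did not pass in the fit of 5 libraries alone (adjusted p 0.352 to 0.397). For both deletions together that fit takes the 2 strains as 1 group, so the difference between strains counts as spread. It therefore cannot decide about these 3 genes, which differ between the strains. Leaving out the clr-2 deletion ended 11 calls and the clr-1 deletion 6. No paired analysis was possible because the deletion libraries carry no replicate number. With 1 library per deletion strain, variation between cultures of a strain is unknown, and a gene listed at 0 may have had a few reads.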

Other observations

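By the deposited positions, 18 of the 72 called genes lie next to another called gene, in 10 pairs; the number expected by chance was not computed. NCU10110, NCU04401, NCU04400 and NCU10107 follow each other with 984, 719 and 570 bases between them, and all 4 were higher in the deletions, at 608 to 2284 FPKM, than in starved wild type, at 34.004 to 226. The gene next to xr, NCU08383, held 15.8 and 15.6 FPKM against 1.22, 1.41 and 1.65 (adjusted p = 0.012). Next to cdt-2 lies msh3, for a DNA mismatch repair protein, with 96.1 and 184 FPKM against 47.4, 33.0 and 38.1 (adjusted p = 0.022); in both msh3 and cdt-2 the clr-2 deletion was the higher strain. NCU02021, which was higher, lies 147 bases from NCU02022, which was lower, at 8.87 and 8.36 FPKM against 28.8, 25.1 and 38.4 (adjusted p = 0.036). The call of NCU02022 ended in 6 alternatives (adjusted p 0.0539 to 0.258), among them without either deletion library and without no-carbon replicate 1 or 3. In a strand-blind count reads of close neighbours may be shared. Apart from cdt-2, xr, NCU04401 and NCU02022, these genes were named after their values were seen.

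Within 500 kb of matA-1 on its contig, a window chosen after seeing the data, 6 of 229 tested genes were called (2.62%, against 0.834% of all tested genes, with no test). They are matA-1 itself, NCU02061, NCU02042 and NCU02022, which were lower, and NCU02021 and NCU01900, which were higher. NCU02061, NCU02042 and NCU02022 lie 360, 280 and 213 kb away. NCU02042 held 39.6 and 50.4 FPKM against 164, 112 and 129 (adjusted p = 0.0055), a call that ended without the clr-1 deletion (0.103) and in the fit of 5 libraries alone (0.0652).

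Some of the higher genes had their highest wild-type level on sucrose. NCU03293 held 838 and 650.2 FPKM in the deletions and 118, 147 and 64.4 in starved wild type (adjusted p = 0.0032), and on sucrose at 4 h wild type held 15582, 14814 and 16152. NCU01720 held 268 and 224 against 60.95, 49.5 and 24.6 (adjusted p = 0.0023), with 1086, 997 and 1169 in wild type on sucrose. These 2 genes were named after their values were seen.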
